A study of Mus musculus with 16 samples.

Results

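Conjugation enzymes of phase II metabolism were followed in liver RNA of 16 male mice, with 1 library per mouse. The 65 genes described are the protein-coding genes of the deposited table, out of 25719 genes in all, whose symbols mark UDP-glucuronosyltransferases (Ugt1a, Ugt2a, Ugt2b and Ugt3a), cytosolic sulfotransferases (Sult followed by a digit) or glutathione S-transferases (Gst followed by a class letter and a digit). There are 21 UGT genes (9 of family UGT1, 10 of UGT2 and 2 of UGT3), 21 SULT genes and 23 GST genes (5 of class alpha, 7 mu, 3 pi, 4 theta, 2 omega, 1 kappa and 1 zeta). The rule reads symbols and biotypes.

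The 4 groups were WT or Klrk1-/- mice on each of 2 diets. WT mice are labelled C57BL6J and carry no deletion, and Klrk1-/- mice lack Klrk1, the gene of NKG2D, an activating receptor of NK cells and T cells. The knockout is of the whole animal and not of 1 cell type. NCD is normal chow diet, and SSD is a steatosis-steatohepatitis diet rich in fat, fructose and cholesterol. Mice were 8 to 12 weeks old when feeding began and were on their diet for 3 weeks. There were 4 WT mice on NCD (numbered 1, 2, 3 and 5), 5 WT mice on SSD, 4 Klrk1-/- mice on NCD and 3 Klrk1-/- mice on SSD, and values below follow the mouse numbers in each group. The RNA came from whole liver, so each value mixes hepatocytes with all other liver cells.

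Phase II enzymes join a drug, a steroid, bilirubin, a bile acid or a reactive lipid product to a small polar group, which makes it easier to excrete in bile or urine. UGTs sit in the endoplasmic reticulum and transfer glucuronic acid from UDP-glucuronic acid, SULTs work in the cytosol with the sulfate donor PAPS, and GSTs couple glutathione to electrophiles. Hepatocytes hold most of this capacity, several of the genes differ between male and female rodents, and many respond to xenobiotic receptors or to NRF2, the oxidative stress factor.

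Values are normalized counts, meaning read counts divided by 1 factor per mouse. Libraries held 19892025 to 28936707 reads on genes. A call needed an adjusted p from limma under 0.05 together with a change of more than 1.5-fold. The test used log2(normalized count + 1), which understates changes of low genes, and left out genes whose mean was below 10 normalized counts. p-values measure the spread between mice, and nothing in the labels ties mice of different groups together. Klrk1 was at 20.1 to 28.7 normalized counts in WT mice on NCD and 32.9 to 71.1 on SSD, against 1.23 to 8.71 and 0.966 to 4.29 in Klrk1-/- mice, so it followed the labels in all 16 mice. Of the libraries, 2 stood apart from the others of their group. The chi-square per gene between the reads of 2 mice was 73.2 to 101 for WT SSD mouse 1 against each other WT SSD mouse, which differed by 18.8 to 36.1 among themselves, and 36.5 to 43.0 for Klrk1-/- NCD mouse 3 against 14.2 to 17.4 among the rest of its group. Both stay in the groups, and counts without them stand beside the main ones. Markers of other cell types differed between diets. The summed level of 10 macrophage and Kupffer cell genes, Clec4f, Timd4 and Adgre1 among them, was 6591 to 7474 in WT mice on NCD and 8780.2 to 21224 on SSD, highest in WT SSD mouse 1 (21224) and mouse 4 (15954), and 5829 to 7024 and 7007 to 8608 in Klrk1-/- mice. That of 10 hepatocyte genes, such as Alb and Apob, was 2433930 to 2748580, 1594040 to 2020920, 2335530 to 3023270 and 2137050 to 2301650 in the same order, lowest in WT mice on SSD. No gene of either list was at 0 in all mice of a group. The part of these levels in the results below was not tested, and in bulk liver fewer hepatocytes cannot be told apart from less RNA per hepatocyte.

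Of the 65 genes, 46 passed the minimum level in at least 1 comparison and 45 in all 5. The 7 genes with 0 reads in every mouse were Sult1c1, Sult2a1, Sult2a3, Sult2a4, Sult2a5, Sult3a2 and Sult6b2. With 7 others that had at most 3 reads in every mouse (Sult2a2, Sult2a6, Sult3a1, Sult6b1, Gstt4, Ugt2a1 and Ugt2a2) they make up 14 genes at or near 0. The others below the minimum were Gsta5, Sult4a1, Gsto2, Sult2b1 and Sult1e1, the estrogen sulfotransferase, with at most 4, 4, 6, 6 and 7 reads. Measured by signal per kilobase of gene length and averaged over all mice, Gstm1 led the GSTs (89092 normalized counts per kilobase), ahead of Gstp1 (34229), Gsta3 (16483) and Gstz1 (9103). Ugt2b36 (16222) led the UGT2 genes on the same scale and Sult2a8 (11823) the SULTs. Ugt1a10 (14228) came first among the UGT1 genes through its gene length of 1197 bases, against 2014 to 2276 for the others, since the rows of that family hold nearly the same reads.

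Together the conjugation genes made up 1.02 to 1.23% of all signal in WT mice on NCD, 1.27 to 1.67% in WT mice on SSD, 0.912 to 1.03% in Klrk1-/- mice on NCD and 1.44 to 1.66% in Klrk1-/- mice on SSD. By this share every SSD mouse was above every NCD mouse in both genotypes. The sum of all normalized counts was lower on SSD, at 19222000 to 21373600 against 25001200 to 27985200 in WT mice and 21861100 to 22666500 against 25522100 to 27893000 in Klrk1-/- mice. In normalized counts the conjugation genes summed to 264973 to 343818 on NCD and 243655 to 346731 on SSD in WT mice, which overlap, and to 247315 to 282907 and 315322 to 377186 in Klrk1-/- mice, which do not. The mu class carried much of this difference. Its share of all signal was 0.184 to 0.226% in WT mice on NCD and 0.410 to 0.793% on SSD, and 0.230 to 0.263% and 0.513 to 0.724% in Klrk1-/- mice. Gstm1 alone was 27.2 to 34.0% of the GST signal in WT mice on NCD and 52.5 to 63.4% on SSD, and 33.2 to 39.2% and 53.3 to 60.8% in Klrk1-/- mice. The SULT class went the other way, with 0.0936 to 0.124% of all signal in WT mice on NCD, 0.0579 to 0.0758% on SSD, 0.0884 to 0.102% in Klrk1-/- mice on NCD and 0.0783 to 0.0825% on SSD, again without overlap between diets. The share of UGT2 genes overlapped between diets in WT mice (0.276 to 0.379% and 0.263 to 0.353%) and was higher in every Klrk1-/- mouse on SSD (0.350 to 0.374%) than on NCD (0.209 to 0.285%). These sums are a description, with no test.

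**Figure D1:**
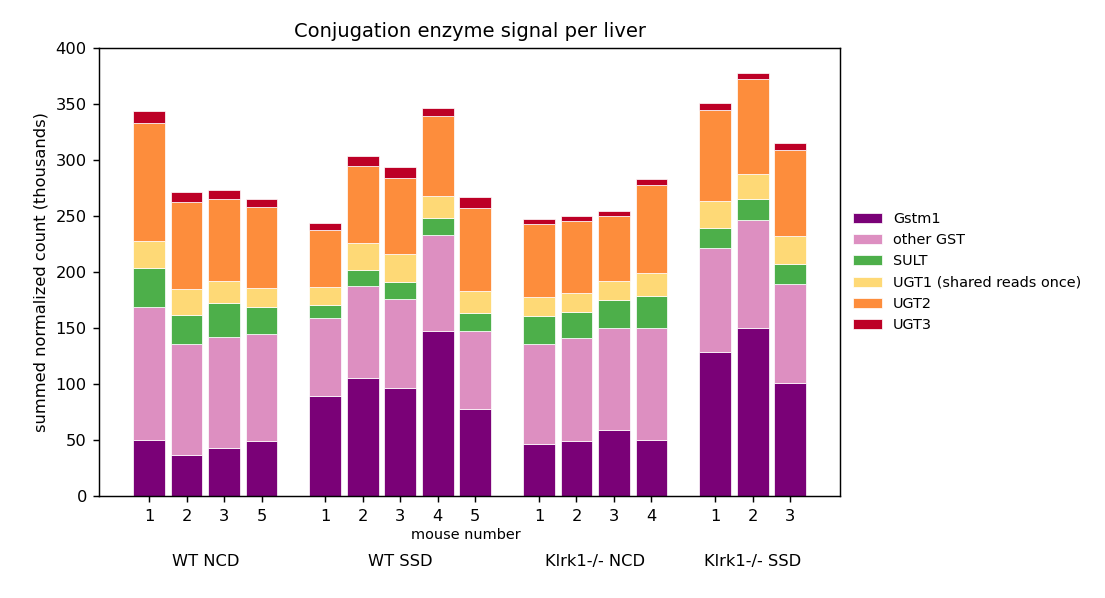
Summed normalized count of the conjugation genes in each mouse (vertical axis), stacked by class, with the reads that Ugt1a genes share counted once. The Gstm1 segment is larger in all 8 SSD mice, at 52.5 to 63.4% of the GST signal, than in all 8 NCD mice, at 27.2 to 39.2%.

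The first question was how the diet moved these genes in WT mice. On SSD 19 of 46 tested genes changed, 5 higher and 14 lower, against 19.3% of all 13091 genes tested. Among the called genes the largest rises were Gsta1, Gstp2 and Sult1c2 and the largest falls Ugt2b38, Sult5a1 and Ugt2b37. No UGT gene rose and 4 of 19 fell, 1 of 7 SULT genes rose and 5 fell, and 4 of 20 GST genes rose and 5 fell. The 5 SULT falls include Sult2a7, which passed the minimum level through NCD mice alone and so had to be lower on SSD. The median log2 fold change over the 46 genes was -0.05, and -0.18 over the 37 without the 9 Ugt1a rows, which hold nearly the same reads, against 0.00 over all genes tested. The 2 diet groups did not overlap for 21 of the 46 genes, against 29% of all genes. With all libraries scaled to 1 total, which moved the median of all genes by 0.34 on the log2 scale, the count stayed at 19 but split into 9 higher and 10 lower, with 15 genes in common. The share of all genes called rose from 19.3% to 29.6% under this scaling. Gsta3, Gstm6, Gstp1 and Ugt2a3 lost their call and no called gene turned its direction. Without WT SSD mouse 1 the calls were 17, against 17.7% of all genes.

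The diet changed 23 of 46 genes in Klrk1-/- mice, 12 higher and 11 lower, against 13.1% of all 12904 genes tested. The diet groups did not overlap for 40 of the 46, against 37.6% of all genes. Among the called genes the largest rises were Gsta1, Gsta2 and Gstp2 and the largest falls Ugt2b38, Ugt2b37 and Sult5a1. Among UGT genes 3 of 19 rose and 3 fell, 1 of 7 SULT genes rose and 4 fell, and 8 of 20 GST genes rose and 4 fell. The median log2 fold change was 0.29 over the 46 genes, but 0.00 over the 37 without the Ugt1a rows and 0.00 over all genes, and 31 of those 37 did not overlap. Without Klrk1-/- NCD mouse 3 the calls were 20, against 12.8% of all genes. Scaled to 1 total (median of all genes 0.25), 16 were higher and 9 lower, 21 of the 23 among them, and Gstp3 and Ugt2b1 lost their call. The share of all genes called was 20.2% under this scaling.

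WT and Klrk1-/- diet groups share no mice. In both genotypes 15 genes were called in the same direction, 5 higher (Gsta1, Gsta2, Gstm1, Gstp2 and Sult1c2) and 10 lower (Ugt2b37, Ugt2b38, Ugt2b1, Sult1a1, Sult1b1, Sult2a7, Sult5a1, Gstm6, Gstm7 and Gstt3), and none in opposite directions. These 15 are 78.9% of the WT calls and 65.2% of the Klrk1-/- calls. They include Sult2a7, whose direction in WT mice was fixed by the minimum level. Over all genes tested in both, the shared calls of the same direction were 43.8% and 62.6%.

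**Figure D2:**
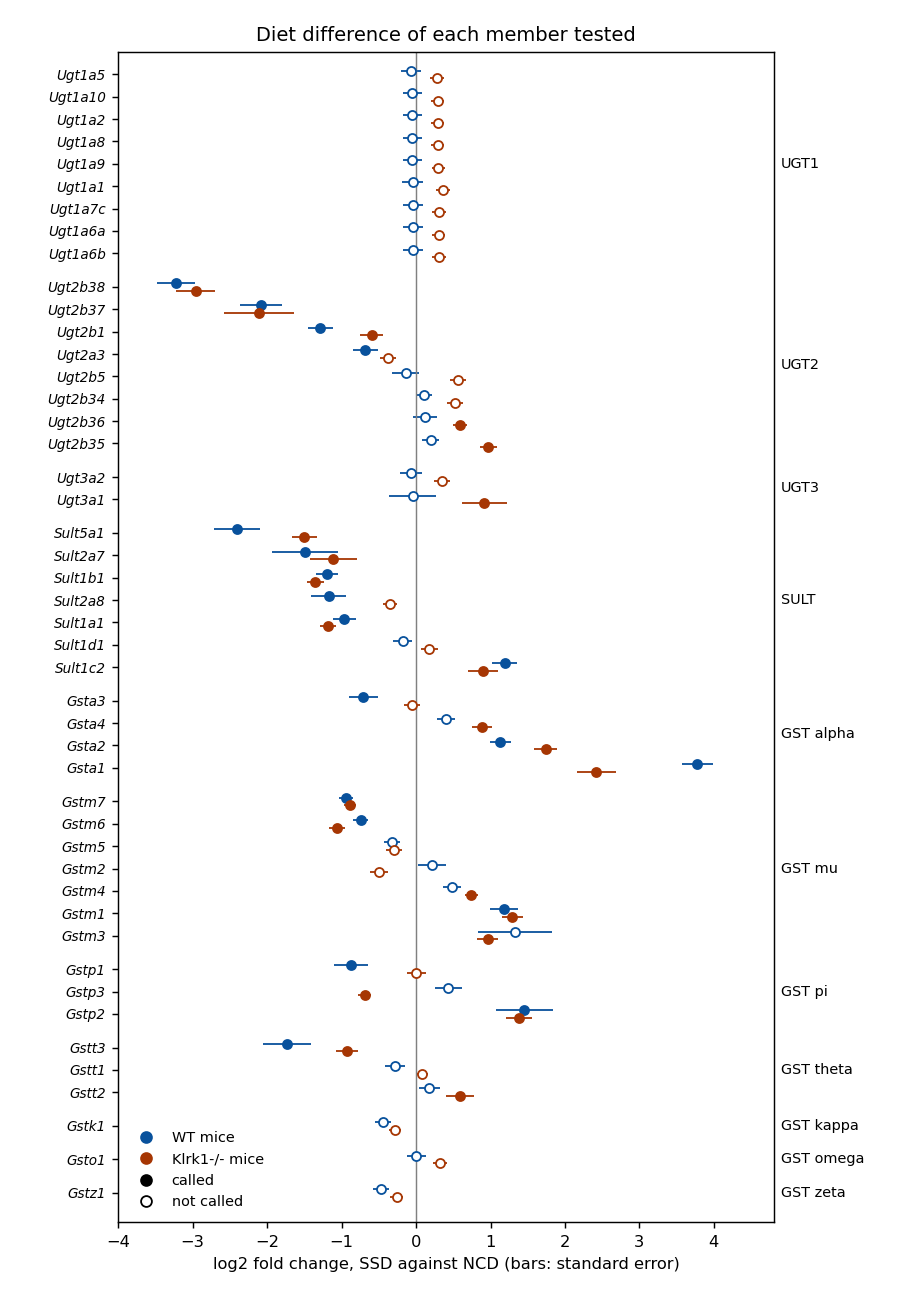
Log2 fold change of SSD against NCD (horizontal axis, bars are standard errors) for the 46 genes tested, by class, in WT mice (blue) and Klrk1-/- mice (brown), with called genes filled. Gsta1 lies farthest to the right at 3.77 and 2.42, and Ugt2b38 farthest to the left at -3.22 and -2.96.

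UGT1 enzymes glucuronidate bilirubin, phenols, drugs and thyroid hormones. The 9 Ugt1a genes lie on chromosome 1, each with a first exon of its own followed by exons that all share, so the 9 rows hold nearly the same reads. In a mouse the highest row exceeded the lowest by 4.55 to 15.1%. Of the 100-base words in their transcripts, 54.3% (Ugt1a10) to 86.9% (Ugt1a6a) occur in another gene too. As deposited, none of the 9 was called in either diet comparison, with log2 fold changes of -0.07 to -0.04 in WT mice and 0.28 to 0.36 in Klrk1-/- mice. Ugt1a10 (chr1:87983110-88146726 in GRCm39 as the table gives it, like all gene positions below, plus strand), first per kilobase through its length alone, was at 19129, 17568, 16640.3 and 14861 in WT mice on NCD and 13264, 19515, 18815, 15975 and 15255 on SSD, which overlap. Klrk1-/- mice had 15121, 15082, 15310.2 and 17969.8 on NCD and 19798, 18839.9 and 19346 on SSD, without overlap. These are almost wholly shared reads, as Ugt1a10 exceeded the lowest row of its mouse by 0 to 11.1 normalized counts, against 581 to 2828 for Ugt1a1.

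Subtracting the lowest Ugt1a row of a mouse from the others leaves the reads in excess of it, a view that was added after the data were seen. It separates the first exons only in part. Ugt1a6b shares 77.0% and Ugt1a7c 75.0% of its 100-base words with Ugt1a6a. The excesses of Ugt1a6b and Ugt1a7c were close in most mice, such as 286 and 276 in Klrk1-/- NCD mouse 1. In Klrk1-/- NCD mouse 3 they were 141 and 199. These rows are therefore not independent. Ugt1a8 was lowest or tied for lowest in 15 of 16 mice, and Ugt1a2 and Ugt1a10 lay too close to it to be tested. The clearest excess was that of Ugt1a5. It was 215, 346, 205 and 111 in WT mice on NCD and 5.31, 29.6, 25.7, 7.11 and 25.3 on SSD, a log2 fold change of -3.66 ± 0.49 SE, adjusted p = 0.000217. In Klrk1-/- mice it was 99.9, 119, 138 and 111 on NCD and 23.2, 20.9 and 36.9 on SSD, a log2 fold change of -2.11 ± 0.21 SE, adjusted p = 2.75e-05. In both genotypes every SSD mouse lay below every NCD mouse.

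Ugt1a1 is the bilirubin glucuronidating enzyme. Its excess was not called for diet in WT mice, with a log2 fold change of 0.01 ± 0.27 SE, adjusted p = 0.974. It rose in Klrk1-/- mice from 866, 687, 581 and 1162 on NCD to 1924, 1239.9 and 2828 on SSD, a log2 fold change of 1.25 ± 0.26 SE, adjusted p = 0.00447. The excess of Ugt1a6a (0.61), Ugt1a6b (1.10), Ugt1a7c (1.16) and Ugt1a9 (1.13) rose there too, with adjusted p of 0.0177, 0.0112, 0.0034 and 0.00552. Counted this way, 20 of 43 tested genes were called for diet in WT mice and 29 of 43 in Klrk1-/- mice, against 19.3% and 13.2% of all genes. The 29 include Ugt1a6a, Ugt1a6b and Ugt1a7c, which still share reads and are not separate events.

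**Figure D3:**
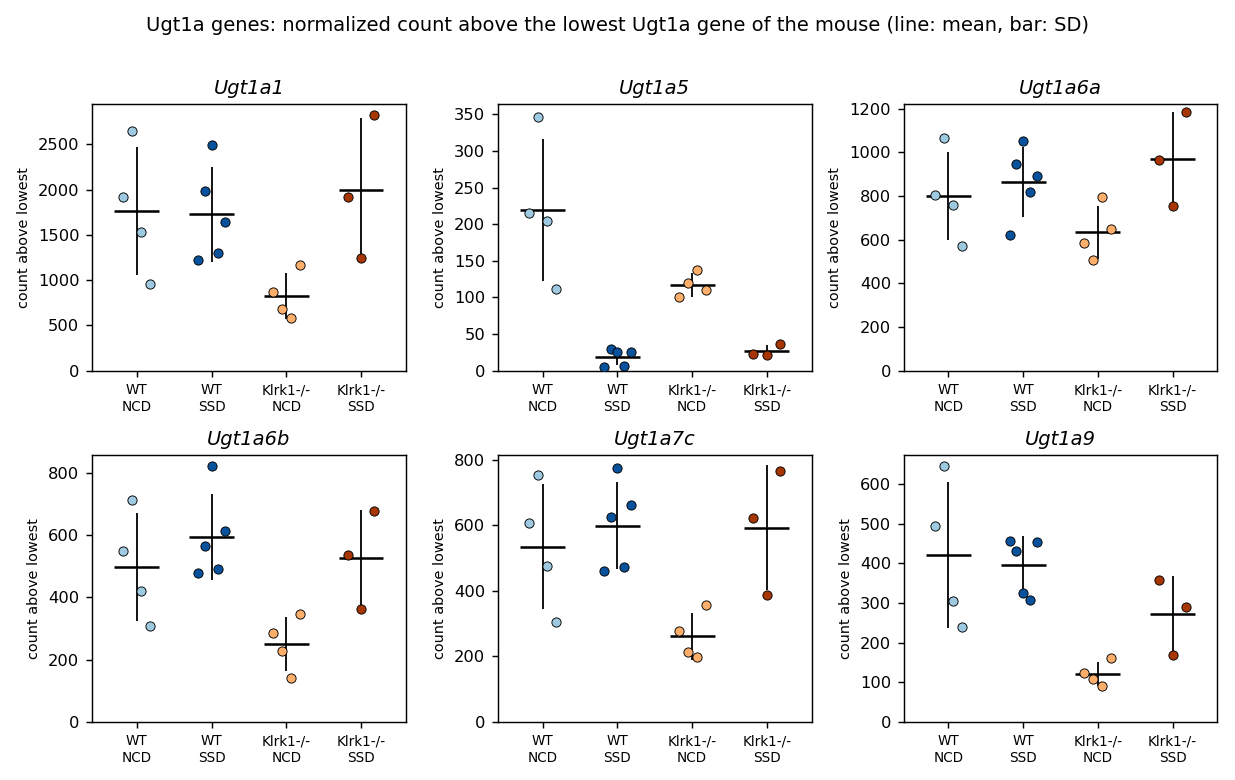
Normalized count of 6 Ugt1a genes above the lowest Ugt1a gene of the same mouse (vertical axis), by group, where points are mice, lines means and bars SD. The WT mean of Ugt1a5 goes from 219 to 18.6 from NCD to SSD, and the Klrk1-/- NCD mice are lowest on average for the other 5 genes.

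UGT2 enzymes glucuronidate steroids, bile acids and fatty acids, and the Ugt2b genes lie in a cluster on chromosome 5. Of 8 tested genes, 4 fell and 0 rose on SSD in WT mice, and 3 fell and 2 rose in Klrk1-/- mice, against 19.3% and 13.1% of all genes called. The most abundant per kilobase, Ugt2b36 (chr5:87213786-87240414, minus strand), was at 22878, 15154, 14229 and 13905 on NCD and 13557, 19752, 17564, 18479.9 and 19499 on SSD in WT mice, and these overlap (log2 fold change 0.12 ± 0.16 SE, adjusted p = 0.591). It rose in Klrk1-/- mice from 13918, 13305, 13763 and 16318 to 21368, 22722 and 20536, without overlap (log2 fold change 0.59 ± 0.09 SE, adjusted p = 0.000793), close to the fold limit, and leaving out NCD mouse 1, 2 or 3 or SSD mouse 2 put it under 1.5-fold.

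Ugt2b38 and Ugt2b37 are close relatives in sequence, and both fell in both genotypes. Ugt2b38 (chr5:87557801-87572062, minus strand) was at 1308, 930.3, 1009 and 1584 in WT mice on NCD and 77.7, 92.1, 137, 195 and 162 on SSD. The Klrk1-/- counts were 923, 677, 417 and 547 on NCD and 103, 87.5 and 52.3 on SSD. The diet groups were far apart in both genotypes, with log2 fold changes of -3.22 ± 0.25 SE, adjusted p = 3.57e-06 and -2.96 ± 0.26 SE, adjusted p = 1.03e-05.

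Ugt2b37 (chr5:87388352-87402663, minus strand) was lower in level, at 189, 107, 272 and 285 in WT mice on NCD and 37.2, 47.3, 46.6, 66.6 and 38.4 on SSD, without overlap (log2 fold change -2.08 ± 0.28 SE, adjusted p = 0.000189). Among Klrk1-/- mice it was at 70.1, 156, 42.3 and 71.3 on NCD and 24.1, 27.3 and 6.86 on SSD, also without overlap (log2 fold change -2.11 ± 0.47 SE, adjusted p = 0.00629). SSD mouse 3 was the lowest of all 16. Ugt2b5, the closest relative of Ugt2b38 by read sharing (24.2% of the 100-base words of Ugt2b38 are in Ugt2b5), was not called in either, at a log2 fold change of -0.14 ± 0.18 SE, adjusted p = 0.579 in WT and 0.56 ± 0.10 SE, adjusted p = 0.00195 in Klrk1-/- mice. Ugt2b5 has a mean of 22822 normalized counts against 519 for Ugt2b38, so part of the Ugt2b38 signal is uncertain where the counting could split such reads.

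The promoters of these 3 genes are printed because closely alike sequences go with unlike diet differences. Over 300 bases, from 250 before to 50 after the start, Ugt2b37 and Ugt2b38 are 91.0% identical, Ugt2b38 and Ugt2b5 87.0%, and Ugt2b37 and Ugt2b5 82.3%. The other Ugt2b pairs have 51.7 to 67.3%. They are given in RefSeq's GRCm38.p6, 5′ to 3′, with matches to the searched motifs in capitals, at chr5:87254739-87255038, chr5:87424154-87424453 and chr5:87140291-87140590, all on the minus strand.
Ugt2b37: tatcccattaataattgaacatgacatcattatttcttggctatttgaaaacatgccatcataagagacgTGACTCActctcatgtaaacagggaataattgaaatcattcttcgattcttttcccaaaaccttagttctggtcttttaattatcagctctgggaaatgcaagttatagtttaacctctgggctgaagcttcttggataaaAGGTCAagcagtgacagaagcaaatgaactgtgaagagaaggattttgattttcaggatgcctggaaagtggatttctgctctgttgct
Ugt2b38: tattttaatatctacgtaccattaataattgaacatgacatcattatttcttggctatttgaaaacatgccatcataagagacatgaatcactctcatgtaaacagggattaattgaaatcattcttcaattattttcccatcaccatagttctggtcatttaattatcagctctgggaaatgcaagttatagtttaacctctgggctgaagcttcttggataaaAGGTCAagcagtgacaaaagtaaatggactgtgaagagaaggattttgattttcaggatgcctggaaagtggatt
Ugt2b5: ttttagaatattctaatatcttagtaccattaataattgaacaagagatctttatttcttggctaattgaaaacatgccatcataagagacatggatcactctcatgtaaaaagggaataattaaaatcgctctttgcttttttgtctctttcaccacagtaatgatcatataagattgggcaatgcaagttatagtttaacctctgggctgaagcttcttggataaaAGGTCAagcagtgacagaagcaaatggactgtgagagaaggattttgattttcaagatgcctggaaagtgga
The capitals mark AGGTCA, the hexamer bound by many nuclear receptors, whose first base is 39, 25 and 22 bases before the start of Ugt2b37, Ugt2b38 and Ugt2b5, and in Ugt2b37 also the AP-1 element TGAGTCA on the other strand. The hexamer is thus present in all 3, Ugt2b5 included.

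Ugt2b1 fell in both genotypes, with log2 fold changes of -1.28 ± 0.16 SE, adjusted p = 0.000139 in WT mice and -0.60 ± 0.15 SE, adjusted p = 0.0135 in Klrk1-/- mice. The second call is lost without NCD mouse 4, SSD mouse 2 or SSD mouse 3 (adjusted p up to 0.0521 or a fold under 1.5) and under scaling to 1 total. Ugt2a3 fell in WT mice (log2 fold change -0.68 ± 0.16 SE, adjusted p = 0.00796), a call lost without SSD mouse 1, where the change came under 1.5-fold, and was at a log2 fold change of -0.38 ± 0.11 SE, adjusted p = 0.02 in Klrk1-/- mice, under the fold limit. Ugt2b35 rose in Klrk1-/- mice (log2 fold change 0.97 ± 0.11 SE, adjusted p = 6.44e-05) and was not called in WT mice (log2 fold change 0.19 ± 0.12 SE, adjusted p = 0.21). Ugt2b34 was not called in either, at a log2 fold change of 0.11 ± 0.10 SE, adjusted p = 0.429 and 0.52 ± 0.11 SE, adjusted p = 0.0036.

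UGT3 enzymes use sugars other than glucuronic acid. Ugt3a2 (chr15:9335636-9371041), the more abundant per kilobase (3284 normalized counts), was not called for diet, at a log2 fold change of -0.07 ± 0.15 SE, adjusted p = 0.764 in WT and 0.35 ± 0.10 SE, adjusted p = 0.025 in Klrk1-/- mice. Ugt3a1 was at a log2 fold change of -0.05 ± 0.32 SE, adjusted p = 0.921 in WT and rose in Klrk1-/- mice (log2 fold change 0.92 ± 0.30 SE, adjusted p = 0.0376), a call lost without NCD mouse 2 or 3 or SSD mouse 1 or 3 (adjusted p of 0.0793 to 0.182), with DESeq2 and with all 4 groups in 1 model.

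SULTs sulfate steroids, bile acids, phenols and thyroid hormones. Of 7 tested genes only Sult1c2 rose and Sult1d1, which acts on catecholamines and eicosanoids, was not called in either genotype (-0.18 and 0.18). Sult2a8 (chr7:14144611-14180694), a hepatocyte enzyme that sulfates bile acids, was the most abundant. It was at 26206, 17720.2, 20048 and 16303 in WT mice on NCD and 4734, 9245, 10617, 9644 and 11455 on SSD, without overlap and with mouse 1 lowest (log2 fold change -1.17 ± 0.23 SE, adjusted p = 0.00273). In Klrk1-/- mice it was at 16297, 15823, 15913 and 19725 on NCD and 12718, 14140.3 and 12848 on SSD, also without overlap, but under the fold limit (log2 fold change -0.35 ± 0.10 SE, adjusted p = 0.02).

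Sult5a1 (chr8:123866931-123885054) was the SULT gene that fell most. It was at 573, 641, 632 and 361 in WT mice on NCD and 100.3, 49.8, 94.2, 115 and 193 on SSD, without overlap (log2 fold change -2.40 ± 0.31 SE, adjusted p = 0.000149). Klrk1-/- mice had 345, 399, 285 and 486 on NCD and 130.4, 117 and 146 on SSD (log2 fold change -1.50 ± 0.16 SE, adjusted p = 5.13e-05). NCD mice were above SSD mice in both genotypes.

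Sult1a1, the main phenol sulfotransferase, fell, with log2 fold changes of -0.96 ± 0.15 SE, adjusted p = 0.000715 in WT and -1.18 ± 0.11 SE, adjusted p = 1.66e-05 in Klrk1-/- mice. It shares 14.8% of its 100-base words with Sgf29 on the other strand, and whether the counting used strand is not given in the sources used here. Sult1b1, which sulfates thyroid hormones, fell too, at a log2 fold change of -1.20 ± 0.15 SE, adjusted p = 0.000126 and -1.35 ± 0.12 SE, adjusted p = 7.12e-06. Sult2a7 was low, with a mean of 15.8 normalized counts over the 16 mice, and fell at a log2 fold change of -1.49 ± 0.44 SE, adjusted p = 0.0219 and -1.11 ± 0.32 SE, adjusted p = 0.0229. In WT mice its means were 18.7 on NCD and 6.41 on SSD, so it passed the minimum of 10 through NCD mice alone. Such a gene had to be lower on SSD, and its WT fall is read no further. In Klrk1-/- mice the means were 27.7 and 11.9, both above the minimum. Leaving out WT NCD mouse 1 or 5 (adjusted p of 0.0584 and 0.0686), or Klrk1-/- NCD mouse 3 or 4 or SSD mouse 1 or 3 (0.0560 to 0.0856), ended these calls, as did a model of all 4 groups for the Klrk1-/- call (0.0665), and the gene was too low to test for genotype on SSD.

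Sult1c2 (chr17:54136665-54153367) went up from 51.9, 68.5, 44.3 and 47.5 in WT mice on NCD to 131, 143, 96.1, 119.9 and 119 on SSD, without overlap (log2 fold change 1.19 ± 0.17 SE, adjusted p = 0.000295). The Klrk1-/- counts were 42.5, 62.2, 72.1 and 62.7 on NCD and 94.6, 130.1 and 109.7 on SSD, without overlap (log2 fold change 0.90 ± 0.20 SE, adjusted p = 0.00557). It stayed well below the abundant SULT genes, at a mean of 47.2 normalized counts per kilobase against 11823 for Sult2a8.

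Alpha class GSTs conjugate lipid peroxidation products and bind bilirubin and bile acids. Gsta1 (chr9:78137938-78149966, plus strand) had the largest rise of all 46 genes. It was at 33.8, 27.2, 24.8 and 43.0 in WT mice on NCD and 535, 601, 325, 447 and 367 on SSD, a log2 fold change of 3.77 ± 0.21 SE, adjusted p = 1.65e-07. Among Klrk1-/- mice it was at 36.8, 29.9, 49.7 and 36.9 on NCD and 176.7, 337 and 147 on SSD, a log2 fold change of 2.42 ± 0.27 SE, adjusted p = 5.13e-05. The groups were apart in both genotypes, and the exact two-sided permutation p was 0.0159 in WT mice and 0.0571 in Klrk1-/- mice, each the smallest that the numbers of mice allow. The same values hold for every gene without overlap in these comparisons, so no diet difference of a single gene in Klrk1-/- mice can reach 0.05 by permutation.

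Gsta1 shares 81.6% of its 100-base words with other genes, 70.5% with its copy Gsta13, listed as Gm3776 in the table. Gm3776 was at 6.52 to 18.1 in WT mice on NCD and 46.6 to 105 on SSD, and 8.71 to 24.6 and 24.9 to 55.4 in Klrk1-/- mice. Both rows were higher on SSD, and how the rise divides between the copies is uncertain. The Gsta1 promoter (chr9:78230419-78230718, plus strand, GRCm38.p6, RefSeq) is printed because this gene rose most, with a palindromic STAT element (TTCNNNGAA, found on both strands) in capitals, 162 bases before the start.
Gsta1: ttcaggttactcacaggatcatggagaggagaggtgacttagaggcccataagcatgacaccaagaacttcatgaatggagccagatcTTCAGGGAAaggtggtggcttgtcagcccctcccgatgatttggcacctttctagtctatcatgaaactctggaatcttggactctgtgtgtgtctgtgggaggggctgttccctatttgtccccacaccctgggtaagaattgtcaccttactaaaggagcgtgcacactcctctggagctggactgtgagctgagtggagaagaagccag
It holds none of the other letters searched, the antioxidant response element core included.

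Gsta2 rose as well. It was at 643, 457, 425 and 578 in WT mice on NCD and 1283, 1295, 988, 1216 and 949.5 on SSD (log2 fold change 1.13 ± 0.14 SE, adjusted p = 0.000125), and at 445, 429, 499 and 641 on NCD and 1626, 2033 and 1392 on SSD in Klrk1-/- mice (log2 fold change 1.74 ± 0.15 SE, adjusted p = 9.05e-06), without overlap in either. Gsta4, which detoxifies 4-hydroxynonenal, rose in Klrk1-/- mice (log2 fold change 0.89 ± 0.13 SE, adjusted p = 0.000542) and was under the fold limit in WT mice (log2 fold change 0.40 ± 0.12 SE, adjusted p = 0.0273). Gsta3 (chr1:21310813-21335885), the most abundant of the class per kilobase, was at 36282, 33497, 30627 and 25329.5 in WT mice on NCD and 12352, 25828, 23436, 18980.0 and 17799.6 on SSD, which overlap (log2 fold change -0.71 ± 0.20 SE, adjusted p = 0.0157). In Klrk1-/- mice it was at 22745, 22140.0, 22688 and 27490.3 on NCD and 21575, 21049.9 and 26126 on SSD (log2 fold change -0.05 ± 0.11 SE, adjusted p = 0.753). The WT call is lost without WT NCD mouse 1 or SSD mouse 1 (adjusted p of 0.0118, with a fold under 1.5, to 0.0523).

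The mu class lies in 1 cluster on chromosome 3, in the order Gstm5, Gstm7, Gstm6, Gstm3, Gstm2, Gstm1 and Gstm4 by position, and its members conjugate epoxides and other electrophiles. Genes of the cluster were called in both directions. Gstm1 (chr3:107919571-107925289, minus strand) was at 49919, 36880.2, 43459 and 49026 in WT mice on NCD and 89486, 105804, 96993, 147877 and 77563 on SSD, without overlap and with SSD mouse 4 highest (log2 fold change 1.18 ± 0.19 SE, adjusted p = 0.000677). Klrk1-/- mice had 46259, 49721, 58888 and 49903 on NCD and 128744, 149837 and 101135 on SSD, also without overlap (log2 fold change 1.29 ± 0.14 SE, adjusted p = 5.89e-05).

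Gstm7 fell, with log2 fold changes of -0.94 ± 0.10 SE, adjusted p = 2.99e-05 in WT and -0.89 ± 0.08 SE, adjusted p = 1.12e-05 in Klrk1-/- mice, and so did Gstm6, at a log2 fold change of -0.75 ± 0.10 SE, adjusted p = 0.000249 and -1.06 ± 0.11 SE, adjusted p = 3e-05. Gstm4 rose in Klrk1-/- mice (log2 fold change 0.74 ± 0.08 SE, adjusted p = 7.23e-05) and was under the fold limit in WT mice (log2 fold change 0.48 ± 0.11 SE, adjusted p = 0.00757). Gstm2 (0.21 and -0.50) and Gstm5 (-0.32 and -0.30) were not called.

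Gstm3 was the most uneven of the class. In WT mice it was at 1942, 1472, 1911 and 2016 on NCD and 15508, 2644, 2279, 8771 and 2428 on SSD, where mice 1 and 4, the pair with the highest macrophage marker sums, stood far above the other 3. The groups did not overlap, and the gene was not called (log2 fold change 1.33 ± 0.50 SE, adjusted p = 0.0564). With a narrower spread, it rose in Klrk1-/- mice (log2 fold change 0.96 ± 0.14 SE, adjusted p = 0.000457), a call lost with all 4 groups in 1 model (adjusted p = 0.157).

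The Gstm1 and Gstm7 promoters, both minus strand in GRCm38.p6 at chr3:108017769-108018068 and chr3:107931565-107931864, are printed as a pair from this cluster of which Gstm1 rose and Gstm7 fell in both genotypes. Capitals mark AGGTCA in Gstm1, 5 bases before the start, and the antioxidant response element core TGACNNNGC in Gstm7, 129 bases before it. The RefSeq table gives a second window for each gene, at chr3:108017924-108018223 and chr3:107931768-107932067, and neither of those holds any of the motifs searched.
Gstm1: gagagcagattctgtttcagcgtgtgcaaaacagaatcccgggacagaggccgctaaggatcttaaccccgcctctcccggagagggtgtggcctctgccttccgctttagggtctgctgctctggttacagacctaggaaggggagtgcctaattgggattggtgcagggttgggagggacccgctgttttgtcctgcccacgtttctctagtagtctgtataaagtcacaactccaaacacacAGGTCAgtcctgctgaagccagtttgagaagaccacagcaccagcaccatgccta
Gstm7: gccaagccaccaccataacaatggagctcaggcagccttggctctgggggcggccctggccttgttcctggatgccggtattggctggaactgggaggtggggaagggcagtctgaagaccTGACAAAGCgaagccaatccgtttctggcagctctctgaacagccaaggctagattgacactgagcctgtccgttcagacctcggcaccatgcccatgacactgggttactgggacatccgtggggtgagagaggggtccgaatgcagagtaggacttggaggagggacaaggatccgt
Neither window holds the other motifs searched.

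Pi class GSTs are male-biased in mouse liver. Gstp1 (chr19:4085407-4087985), the most abundant, was at 35225, 24854, 25482 and 27676 in WT mice on NCD and 8710.0, 14222, 17673, 21805 and 17631 on SSD, without overlap (log2 fold change -0.87 ± 0.22 SE, adjusted p = 0.0112). The Klrk1-/- counts were 22462, 23221, 18989 and 22826 on NCD and 23664, 25362 and 17415 on SSD (log2 fold change 0.00 ± 0.13 SE, adjusted p = 0.985). The difference between these 2 diet effects was not past the threshold, at a difference of 0.88 ± 0.30 SE, adjusted p = 0.161.

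Gstp2 rose in both. It was at 96.5, 73.5, 82.1 and 129 in WT mice on NCD and 284, 127, 153, 617 and 326 on SSD, where mouse 4 was highest and mouse 2 overlapped NCD mouse 5 (log2 fold change 1.45 ± 0.38 SE, adjusted p = 0.0121). Among Klrk1-/- mice it was at 71.2, 90.8, 68.4 and 62.7 on NCD and 152, 227 and 201 on SSD (log2 fold change 1.38 ± 0.17 SE, adjusted p = 0.000151). Gstp2 shares 31.1% of its 100-base words with Gstp1, which is far more abundant, so its level is uncertain. Gstp3 fell in Klrk1-/- mice (log2 fold change -0.69 ± 0.08 SE, adjusted p = 8.91e-05) and was not called in WT mice (log2 fold change 0.43 ± 0.18 SE, adjusted p = 0.0795).

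The theta class acts on small alkyl halides and sulfate esters. Gstt3 fell, with log2 fold changes of -1.74 ± 0.33 SE, adjusted p = 0.00187 in WT and -0.93 ± 0.15 SE, adjusted p = 0.000851 in Klrk1-/- mice, and shares 21.5% of its 100-base words, in part with the readthrough gene Gm20441. Gstt1 (chr10:75619647-75634418), the most abundant, was at 8525, 6691, 7659 and 7351 on NCD and 4634, 7722, 6497, 6220.1 and 6178 on SSD in WT mice, and 7223, 6617, 7987 and 7235 on NCD and 7623, 7904 and 7456 on SSD in Klrk1-/- mice, and was not called (log2 fold change -0.29 ± 0.13 SE, adjusted p = 0.112 and 0.08 ± 0.08 SE, adjusted p = 0.506). Gstt2 rose in Klrk1-/- mice (log2 fold change 0.59 ± 0.19 SE, adjusted p = 0.0354). That call failed without any of NCD mice 1, 2 and 4 and SSD mice 2 and 3 (adjusted p of 0.0636 to 0.131) and with DESeq2.

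The classes with 1 tested gene each stayed under the fold limit. Gstk1, a mitochondrial and peroxisomal enzyme, was at 2659, 2434, 2817 and 2977 in WT mice on NCD and 1875, 2278, 2304, 1897 and 1679 on SSD, and 2692, 2867, 2753 and 3033 on NCD and 2209, 2297 and 2510.5 on SSD in Klrk1-/- mice. Gstz1, of tyrosine breakdown, was at 17751, 15907, 16007 and 15165 on NCD and 10457, 13356, 13052, 10679.5 and 10923 on SSD in WT mice, and 15815, 16782, 16365 and 17772 on NCD and 14348, 13176 and 14168 on SSD in Klrk1-/- mice. Both were slightly lower on SSD in both genotypes without overlap, at log2 fold changes of -0.45 and -0.28 for Gstk1 and -0.48 and -0.26 for Gstz1. Gstz1 shares 32.6% of its 100-base words with genes on the other strand, Tmed8 most. Gsto1, which reduces dehydroascorbate, was at 2553, 2186, 2080.4 and 2212 on NCD and 1687, 2676, 2289.8, 2549 and 2222 on SSD in WT mice (0.00), and 2126, 2548, 2415 and 2509 on NCD and 3132, 3166 and 2710.2 on SSD in Klrk1-/- mice (0.32).

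**Figure D4:**
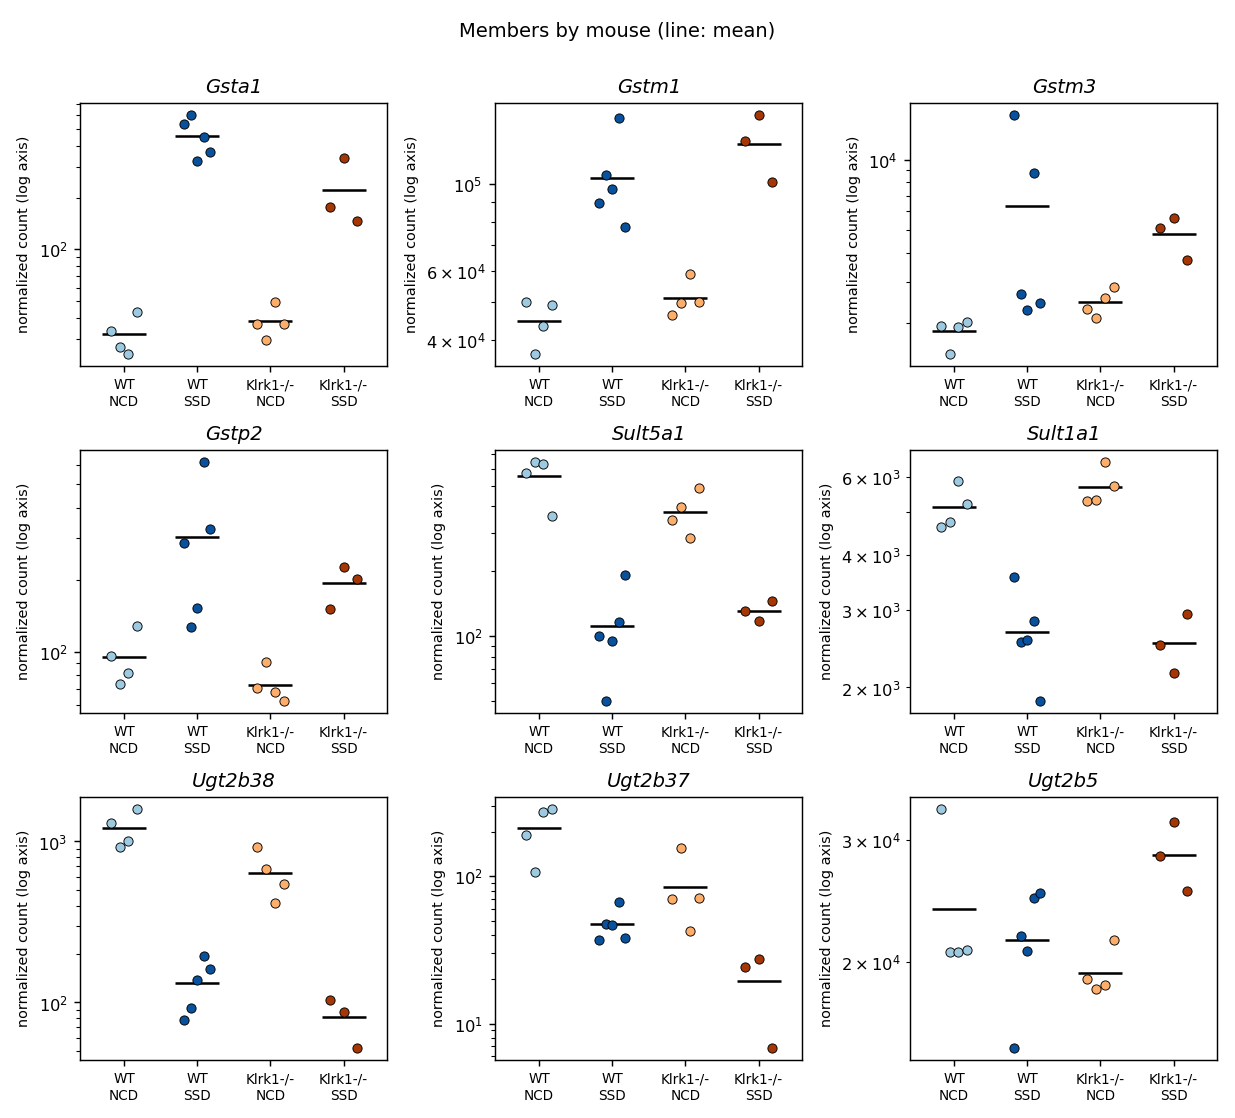
Normalized count (vertical log axis) of 9 conjugation genes in each mouse, by group, with lines at the means. Gsta1, Gstm1, Ugt2b38 and Sult5a1 separate the diets in both genotypes, and Gstm3 is high in 2 of 5 WT SSD mice, at 15508 and 8771.

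The second question was how these genes differed between Klrk1-/- and WT mice on the same diet. The study lists the 2 as separate lines and names littermates only for other crosses. Loss of Klrk1 therefore cannot be told apart from other differences between the lines or their colonies. On NCD 6 of 46 changed, 2 higher and 4 lower in Klrk1-/- mice, against 5.79% of all 12845 genes tested. The groups did not overlap for 12 of the 46, against 19.3% of all genes. Those higher were Gstm6 and Gstp3, and those lower were both UGT3 genes, Ugt2b37 and Ugt2b38. The median log2 fold change was -0.11 over the 46 genes, -0.06 over the 37 without the Ugt1a rows and 0.00 over all genes. Without Klrk1-/- NCD mouse 3 the calls were 3, against 3.31% of all genes.

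Ugt3a2 was at 9643, 8772, 8131 and 6642 in WT and 4487, 3938, 3754 and 4953 in Klrk1-/- mice on NCD, without overlap (log2 fold change -0.95 ± 0.12 SE, adjusted p = 0.000773). On SSD it was at 5855, 8700.3, 9048, 7177 and 9061 in WT and 5535, 5017 and 5745 in Klrk1-/- mice, again without overlap, and the call was not made (log2 fold change -0.53 ± 0.15 SE, adjusted p = 0.0762). The exact two-sided permutation p without overlap is 0.0286 on NCD and 0.0357 on SSD, the smallest possible.

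Ugt3a1 was at 783, 837, 452 and 295 in WT and 299.8, 182, 160.4 and 312 in Klrk1-/- mice on NCD, which overlap, with WT mouse 5 level with the Klrk1-/- mice (log2 fold change -1.25 ± 0.31 SE, adjusted p = 0.0219). On SSD it was at 339, 697, 705, 372 and 651 in WT and 447, 267 and 679.7 in Klrk1-/- mice (log2 fold change -0.28 ± 0.33 SE, adjusted p = 0.643). The NCD call was lost without WT mouse 1 or 2 or Klrk1-/- mouse 2 or 3 (adjusted p of 0.0617 to 0.0680).

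The per-mouse values of Ugt2b38 and Ugt2b37 above give log2 fold changes of -0.94 ± 0.22 SE, adjusted p = 0.0167 and -1.38 ± 0.36 SE, adjusted p = 0.0275 for genotype on NCD. The Ugt2b38 groups touch but do not overlap, at 930.3 as the lowest WT and 922.5 as the highest Klrk1-/- mouse, and those of Ugt2b37 overlap. The Ugt2b37 call was lost without WT mouse 1 or 3 or Klrk1-/- mouse 1, 3 or 4 (adjusted p of 0.0513 to 0.0779). On SSD they were at a log2 fold change of -0.68 ± 0.32 SE, adjusted p = 0.233 and -1.41 ± 0.40 SE, adjusted p = 0.0841.

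Gstm6 was at 3308, 2500.0, 2925 and 2726 in WT and 3998, 4069, 4872 and 4784 in Klrk1-/- mice on NCD, without overlap (log2 fold change 0.63 ± 0.11 SE, adjusted p = 0.00334), a size near the fold limit that came under it without WT mouse 2 or Klrk1-/- mouse 3. On SSD it was at 1905, 1659, 1678, 1822 and 1462 in WT and 2139, 2399.6 and 1836 in Klrk1-/- mice (log2 fold change 0.31 ± 0.11 SE, adjusted p = 0.135). Gstp3 was at 498, 418, 405 and 511 in WT and 793, 773, 796 and 752 in Klrk1-/- mice on NCD, without overlap (log2 fold change 0.77 ± 0.10 SE, adjusted p = 0.000773).

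In excess reads, 4 further UGT1 rows were lower in Klrk1-/- mice on NCD, namely Ugt1a1 (-1.05), Ugt1a6b (-0.999), Ugt1a7c (-0.99) and Ugt1a9 (-1.72), with adjusted p of 0.0255, 0.0327, 0.0227 and 0.00252. Those of Ugt1a6b and Ugt1a7c nearly coincide in most mice and are close to 1 event. For Ugt1a9 the excess was 496, 645, 305 and 238 in WT and 123, 108, 89.5 and 162 in Klrk1-/- mice, without overlap, while the other 3 overlapped. With these rows 10 of 43 tested genes were called on NCD, against 5.82% of all genes, with Ugt1a6b and Ugt1a7c counted separately. The NCD genotype comparison and the Klrk1-/- diet comparison share the Klrk1-/- NCD mice.

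On SSD only Gstt2 of 45 tested genes changed with genotype, against 2.13% of all 13116 genes tested. It was at 1048, 1157, 817, 1409 and 1176 in WT and 1710.3, 2887 and 1918 in Klrk1-/- mice, without overlap (log2 fold change 0.94 ± 0.19 SE, adjusted p = 0.0346). On NCD it was at 1164, 852, 939.8 and 978 in WT and 1182, 1331, 1936 and 1296 in Klrk1-/- mice, also without overlap and under the fold limit (log2 fold change 0.53 ± 0.14 SE, adjusted p = 0.0327). The SSD call failed without WT mouse 2 or 3 or any 1 of the 3 Klrk1-/- mice (adjusted p of 0.0605 to 0.121). The groups did not overlap for 12 of the 45 genes, against 17.9% of all genes, and the median log2 fold change was 0.24 over the 45 genes and 0.00 over all. With all libraries scaled to 1 total (median of all genes -0.12), 1 gene was higher and 2 lower, against 2.46% of all genes called. Without WT SSD mouse 1 the calls were 3, against 3.42% of all genes.

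**Figure D5:**
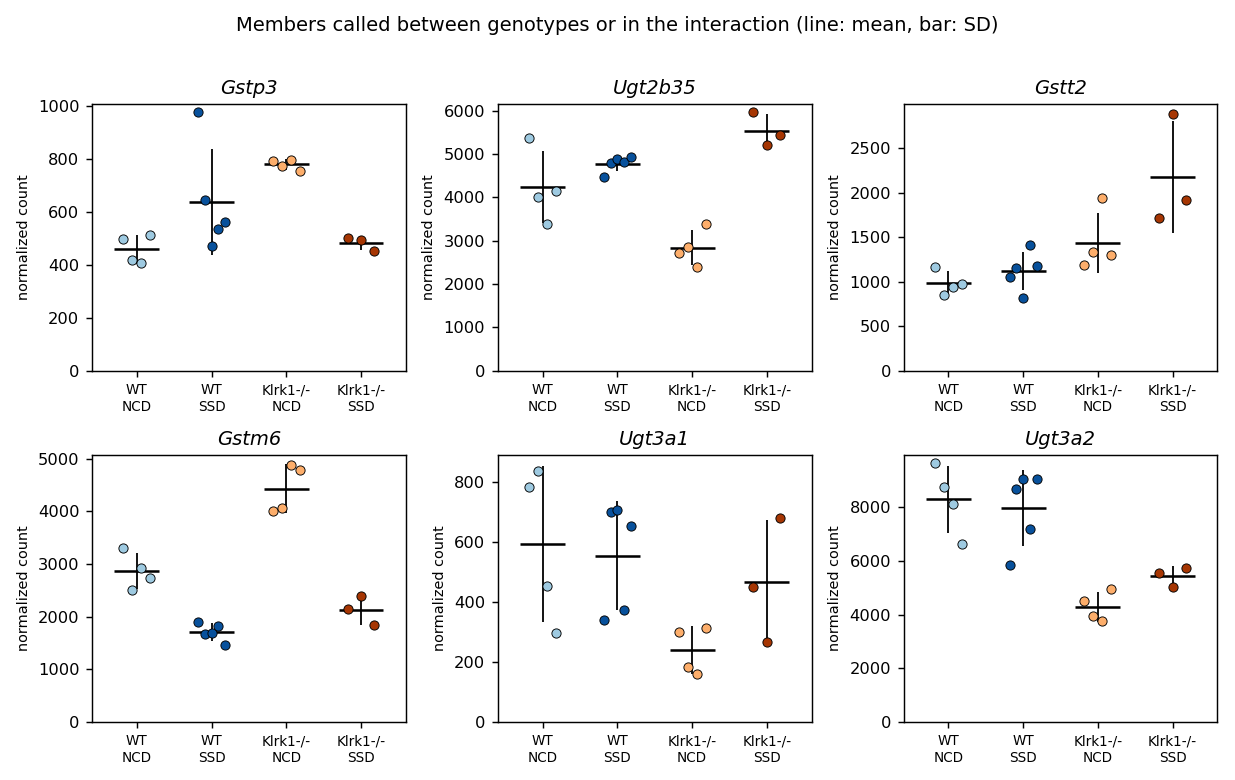
Normalized count (vertical axis) of 6 genes called for genotype or for the interaction, by group, where points are mice, lines means and bars SD. The 4 Klrk1-/- NCD mice sit above the WT NCD mice for Gstp3 and Gstm6, and below them for Ugt3a2.

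The last comparison asked whether the diet effect differed between genotypes, by an interaction term over all 16 mice. It did for 2 of 46 genes, against 0.849% of all 13068 genes tested. Without WT SSD mouse 1 the calls were 2, against 0.870% of all genes, and without Klrk1-/- NCD mouse 3 they were 1, against 0.589%. Gstp3, whose NCD values are given above, was at 976, 644, 471, 535 and 562 in WT and 499, 493 and 452 in Klrk1-/- mice on SSD. It was higher on SSD than on NCD in WT means and lower in Klrk1-/- mice, an interaction (difference of log2 fold changes) of -1.13 ± 0.23 SE, adjusted p = 0.0254. The call failed without WT NCD mouse 3, Klrk1-/- NCD mouse 1 or 2 or any 1 of the 3 Klrk1-/- SSD mice (adjusted p of 0.0501 to 0.0811).

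Ugt2b35 was at 5370.2, 4006, 3389 and 4150.2 in WT mice on NCD and 4469.9, 4800.5, 4882, 4809 and 4922 on SSD, which overlap. In Klrk1-/- mice it was at 2712, 2856, 2400.2 and 3385 on NCD and 5964, 5201 and 5442 on SSD, a clear separation, and the interaction was 0.78 ± 0.17 SE, adjusted p = 0.0362. On NCD it was lower in Klrk1-/- mice (log2 fold change -0.57 ± 0.14 SE, adjusted p = 0.0204), under the fold limit. The interaction call was lost without any 1 of 12 of the 16 mice (adjusted p of 0.0510 to 0.129). It held without WT NCD mouse 3, WT SSD mouse 1 or 5 or Klrk1-/- NCD mouse 4.

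The genes that supply the conjugation reaction were read from a list of 16, all tested. On SSD 2 rose and 3 fell in WT mice, against 19.3% of all genes called, and 4 rose and 2 fell in Klrk1-/- mice, against 13.1%. The list medians were 0.02 and 0.24, and those of all genes 0.00. Gclc, the catalytic subunit of the rate-limiting enzyme of glutathione synthesis, was higher at log2 fold changes of 1.05 and 1.14, as was glutathione synthetase Gss at 0.81 and 1.04. The regulatory subunit Gclm was called in Klrk1-/- mice (0.95) and not in WT mice (0.50, under the fold limit). Cth, which makes cysteine, was lower at -1.41 and -0.78. The PAPS synthase Papss2 was lower at -0.92 and -0.72 and Papss1 in WT mice at -0.82. Ugdh, which makes UDP-glucuronic acid, rose in Klrk1-/- mice (0.95). On NCD Bpnt1 (-0.65) and Papss1 (-0.64) were lower in Klrk1-/- mice, where 5.79% of all genes were called. On SSD 0 of the 16 were called for genotype, where 2.13% of all genes were.

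Other phase II enzymes numbered 21 tested of 23, Gstz1 among them, with 4 higher and 4 lower on SSD in WT mice and 4 and 3 in Klrk1-/- mice (medians -0.23 and -0.04). The share of genes called in this list is above that of all genes (19.3% and 13.1%) and goes both ways. The epoxide hydrolase Ephx1 (1.43 and 1.90) and the quinone reductase Nqo1 (1.22 and 1.36) rose, as did Mgst3 (1.27 and 0.88) and Gm4952 (0.69 and 0.99). Nnmt, which methylates nicotinamide, fell most (-4.98 and -3.54), followed by Acsm2 (-1.68 and -1.38). The thiopurine methyltransferase Tpmt fell in both (-0.76 and -1.05) and Nat8 in WT mice (-0.80). Nnmt was also lower in Klrk1-/- mice on NCD (-2.87). Of 12 tested genes of deconjugation and transport, 2 rose and 2 fell in WT mice and 2 rose and 1 fell in Klrk1-/- mice (medians 0.21 and 0.01). The basolateral exporters of conjugates Abcc4 (2.39 and 2.21) and Abcc3 (0.79 and 0.65) rose in both genotypes. Slc10a1 (-0.87) and Ggt6 (-0.75) fell in WT mice and Slco1a1 (-0.64) in Klrk1-/- mice, and Gusb was lower in Klrk1-/- mice on SSD (-0.67).

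Of the transcription factors known to control these genes, 2 rose and 2 fell of 20 tested in WT mice, a share near the 19.3% of all genes, with Mafk (0.88) and Ppara (0.71) higher and Onecut1 (-2.73) and Esr1 (-0.65) lower. In Klrk1-/- mice Nr1i3, which encodes the receptor CAR, rose (0.88) and Esr1 fell (-0.66) of 21, a share under the 13.1% of all genes. The list medians were -0.01 and 0.11. Between genotypes Ppargc1a (1.28) and Mafg (0.59) were higher in Klrk1-/- mice on NCD and Ahr lower on SSD (-0.68). Target genes of xenobiotic receptors and NRF2 rose in 7 of 14 tested and fell in 1 in WT mice, against 19.3% of all genes called, with medians of 1.14 for the list and 0.00 for all genes. Of the same genes, 8 rose and 0 fell in Klrk1-/- mice (median 0.73), against 13.1%. Cyp4a14 (6.23 and 5.35) and Cyp4a10 (1.94 and 1.998), PPAR-alpha targets, led both, and Cyp1a2 fell in WT mice (-1.03). The summed signal of the list overlapped between diets in WT mice (93212 to 243795 on NCD, 150945 to 204729 on SSD). In Klrk1-/- mice it did not (108658 to 166615 and 205575 to 254283). Gclc, Nqo1, Cyp4a14 and Cyp2b10 are also in other lists read here, so the list counts are not separate. The limit given below for the female-biased list holds for Cyp4a14 and Cyp2b10 here too. On NCD Cyp4a14 (1.67) and Cyp1a1 (1.001) were higher in Klrk1-/- mice, and on SSD Hmox1 was lower (-1.01).

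Several conjugation genes are sex-biased in mouse liver, so lists of such genes were read beside them. Of 20 male-biased genes, which include Ugt2b38 and Gstp1, 15 fell and 0 rose on SSD in WT mice and 13 fell and 0 rose in Klrk1-/- mice, against 19.3% and 13.1% of all genes called in either direction, with list medians of -1.32 and -1.48 against 0.00 over all genes. The largest falls were Mup7 (-5.65 and -5.78), with Mup1 next in WT mice (-4.22) and Selenbp2 next in Klrk1-/- mice (-5.00). Read sharing was not measured for listed genes outside the conjugation set, the Mup genes included, so these falls may not be separate. Of the 21 female-biased genes most were below the minimum. Of 9 tested in WT mice 5 were called higher on SSD and 1 lower, and of 10 in Klrk1-/- mice 6 and 1. Called highest were Cyp4a14 (above), Cyp2a4 (6.22 and 4.59) and Cyp2b9 (5.15 and 4.75), while Cyp17a1 was lower (-1.77 and -1.59). On NCD 4 of the 21 were at 0 in all WT mice and 7 in all Klrk1-/- mice, against 2 and 3 on SSD. A gene that passed the minimum through 1 group alone had to be higher there, so the diet counts do not show that the list rose. Between genotypes 8 of the 21 could be tested on NCD and 10 on SSD, and these counts are read no further for the same reason. The female-biased sulfotransferases Sult2a1, Sult2a2 and Sult3a1 had at most 3 reads in every mouse on either diet. On NCD 4 of the 20 male-biased genes were lower in Klrk1-/- mice, Mup1 most (-2.08), against 5.79% of all genes called in that comparison. Cyp2a4, of the female-biased list, was at 2.69 there and falls under the limit given above for that list.

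Zonation and cell type markers were read beside the same shares of all genes, 19.3% called in WT mice and 13.1% in Klrk1-/- mice. Of 20 pericentral hepatocyte genes 9 fell and 0 rose in WT mice and 6 fell and 3 rose in Klrk1-/- mice (medians -0.61 and -0.30), led by Oat (-1.68 and -1.40) and Rhbg (-1.45 and -1.32). Of 19 tested periportal genes 13 fell and 1 rose in WT mice and 7 fell and 1 rose in Klrk1-/- mice (medians -0.76 and -0.54), led by Aldh1b1 (-2.03 and -2.31). Of the 10 hepatocyte markers 3 fell in each genotype, Cps1 among them in both (-1.19 and -0.60). Alb and Cps1 are in the periportal list too, Cyp2e1 is in the pericentral list, and Mup20 is in the periportal and male-biased lists. The counts of these lists are therefore not separate. Among other cell types, 5 of 10 macrophage, 3 of 10 stellate and 4 of 10 endothelial markers rose in WT mice, with Cd68 (1.89) and Col1a1 (1.82) highest of the first and second, against 1, 2 and 0 in Klrk1-/- mice. Of the 7 B cell markers 2 fell in WT mice and 3 in Klrk1-/- mice, Ighm most (-1.98 and -3.59), while the list medians were 0.08 and -0.44. Their summed signal was 589.7 to 1581 on NCD and 316 to 553 on SSD in WT mice, and 1989.7 to 2347 and 424 to 461 in Klrk1-/- mice. The erythroid marker Alas2 fell in WT mice (-0.69), and the acinar marker Cela1 fell in both genotypes (-1.71 and -2.06) and Cela2a in Klrk1-/- mice (-1.37). Of 5 tested T and NK cell markers Trac rose in WT mice (0.99), and Epcam was the single call of 6 cholangiocyte markers in Klrk1-/- mice (1.01), where the list median was 0.01 and the summed signal overlapped between diets. Between genotypes on NCD, where 5.79% of all genes were called, 4 of 19 periportal genes (Igfbp1 most, -1.29), 2 of 20 pericentral genes (Cyp7a1, -1.49, and Lgr5, -0.69) and the macrophage marker Marco (-0.77) were lower in Klrk1-/- mice and 2 of 7 B cell markers higher (Ighm most, 1.34). Of the other lists 1 hepatocyte and 1 cholangiocyte marker were lower there and 1 endothelial marker higher. On SSD, where 2.13% were called, 3 periportal genes (Hal most, 1.18) and 3 pericentral genes (Tbx3 most, 1.34) were higher, and Cyp7a1 (-1.42), Marco (-2.45) and Cd68 (-1.36) lower. The part of these cell markers in the differences of the conjugation genes was not tested.

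Promoters of 56 of the 65 genes are in the RefSeq table, 67 promoters in all, searched on both strands beside 32851 mouse promoters of the same length. The antioxidant response element core TGACNNNGC occurs in 3 of the 67, those of Gsta3, Gstm5 and Gstm7, and in 12.4% of all promoters. The dioxin response element TNGCGTG occurs in 3 of the 67 and 5.07% of all, AGGTCA in 12 and 16.3%, TTCNNNGAA in 4 and 8.30%, and TGAGTCA in 8 and 5.20%. GTTAAT, part of the site of the hepatocyte factor HNF1, occurs in 14 of the 67 (20.9%) and in 7.10% of all. Many of these promoters are near copies of each other, so they are not independent, and a match describes letters only.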

How the data were processed

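Whole liver RNA of 16 mice was sequenced as single reads of 100 bases. According to the study's methods the authors ran FastQC on the reads, used STAR for alignment to GRCm39, assigned reads to GENCODE genes with FeatureCounts and used DESeq2, while the labels and the methods name different Truseq kits. The handling of reads that fit several genes and of strand is not given in the sources used here. The signal that the authors deposited is a normalized count per gene and mouse, and 100% of the values were whole multiples of 1 step per mouse (tolerance 0.05 reads), which recovers the reads. The fraction of G and C bases per gene, which the authors also deposited, was not used. Libraries held 19892025 to 28936707 reads, and these limit the precision of low genes.

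From these values limma 3.58.1 (R 4.3.3, trend method) tested log2(normalized count + 1) of genes with a mean of at least 10, with Benjamini-Hochberg adjustment over all genes tested. The design was written for normalized counts. The groups of a comparison entered its model, and all 16 mice that of the interaction. The limits of adjusted p under 0.05 and a fold over 1.5 are those of the study's methods. An exact two-sided permutation test was run for each single gene. Scripts were tested on simulated data. Promoter sequences are RefSeq's, on GRCm38.p6, and were read with Biopython 1.88. Read sharing was measured as the share of 100-base words of a gene's transcripts that also occur in other genes.

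The genes and lists were chosen with earlier results of these data known. Every called conjugation gene is named, with examples from the other lists, and the 3 largest rises and falls of each comparison and the most abundant gene per kilobase of each class are given in every mouse. Gstm3, Ugt2b5 and Gm3776 were added after their values were seen. Alternatives were pseudocounts of 0.5 and 10, no minimum mean or 50, libraries scaled to 1 total, tests of the recovered reads with edgeR 4.0.16 and DESeq2 1.42.0, a block for the replicate number, 1 model of all 4 groups, a limit of 2-fold or no limit, leaving out each mouse in turn and, added after the data were seen, Ugt1a rows as reads in excess of the lowest.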

Additional observations from a re-analysis of the deposited data

Results flagged for a closer look

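In groups of 4 or 5 mice, Dixon's test marked the highest or lowest mouse as apart from the others in 15 of 138 sets of 1 gene and 1 group, where chance alone marks about 1 in 20. Klrk1-/- NCD mouse 4 was high for 8 UGT1 genes that share most of their reads and so count as little more than 1 event. Its normalized counts were 19122 for Ugt1a1, 17969.8 for Ugt1a10, 17959.9 for Ugt1a2, 18071 for Ugt1a5, 18307 for Ugt1a6b, 18317 for Ugt1a7c, 17959.9 for Ugt1a8 and 18122 for Ugt1a9. The same mouse was high for Gsta3, at 27490.3 against 22140.0 to 22745 in the other 3, and for Sult2a8, at 19725 against 15823 to 16297. Klrk1-/- NCD mouse 3 was low for Gstp1, at 18989 against 22462 to 23221. WT SSD mouse 1, which also has the highest macrophage marker sum, was low for Sult2a8, at 4734 against 9245 to 11455, and for Ugt2b35, at 4469.9 against 4800.5 to 4922. WT NCD mouse 2 was low for Gstm3, at 1472 against 1911 to 2016, and WT NCD mouse 1 was high for Ugt2b5, at 33170.3 against 20665 to 20758.

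A pair of genes was marked because the diet effect differed between genotypes by the interaction term, Gstp3 at -1.13 and Ugt2b35 at 0.78 on the log2 scale. Both calls were lost when some single mice were left out.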

How the results depend on the processing

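No gene called in a comparison turned its direction in any alternative run. The counts of called genes for diet in WT mice stayed at 13 to 24 in the alternatives. The 13 came with a fold limit of 2, against 9.01% of all genes, and the 24 without one, against 34.9%. With each mouse left out the counts were 17 to 20, against 15.8 to 20.6%. For diet in Klrk1-/- mice, where 23 were called, a fold limit of 2 left 11, against 5.46% of all genes. No fold limit gave 41, against 29.4%, and leaving out a mouse gave 20 to 22, against 10.98 to 14.18%. For genotype on SSD, where only Gstt2 was called, the count was 3 with libraries scaled to 1 total (2.46% of all genes) and with DESeq2 (5.10%). It was 2 with the replicate block (4.53%) and with all 4 groups in 1 model (4.25%), and 0 with a fold limit of 2 (1.15%). Leaving out a mouse gave 0 to 3, against 0.342 to 3.42% of all genes. The count was 0 without WT SSD mouse 2 or 3 or Klrk1-/- SSD mouse 1 or 3 and 3 without WT SSD mouse 1. For genotype on NCD the 6 calls became 2 with a fold limit of 2 (1.70% of all genes) and 14 without one (13.1%). They became 10 with Ugt1a rows as excess reads (5.82%), of which Ugt1a6b and Ugt1a7c are close to 1 event. With a mouse left out they became 3 to 7 (3.31 to 7.58%), the 3 without Klrk1-/- NCD mouse 3. For the interaction the 2 calls became 1 without a minimum mean (0.469% of all genes), with the replicate block (0.391%) and with a fold limit of 2 (0.536%). They became 3 with DESeq2 (2.71%) and 0 to 2 with a mouse left out (0.283 to 1.42%). The count was 0 without Klrk1-/- NCD mouse 1 or 2 or SSD mouse 1 or 3. The cause of these shifts was not tested, except that a fold limit acts by its own construction.

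The labels number the mice within each group. With the replicate number as a replicate block the counts were 17 and 22 for diet in WT and Klrk1-/- mice, 2 and 7 for genotype on SSD and NCD, and 1 for the interaction. In the same order, the shares of all genes called with this block were 15%, 13.04%, 4.53%, 8.797% and 0.391%. The calls that this block ended were Gsta3 and Sult2a7 for diet in WT mice, Gstt2, Sult2a7 and Ugt2b1 in Klrk1-/- mice, Gstm6 and Ugt2b37 for genotype on NCD and Ugt2b35 for the interaction. Correlations between the deviations of mice with the same number were -0.13 to 0.25, and in no comparison all above 0.1. So few pairs cannot decide whether the numbers tie mice together. Groups of 3 to 5 mice, and few reads for genes such as Sult2a7 and Ugt2b37, limit what the tests can show.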
